A study of Mus musculus with 6 samples.

Results

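The cells of the pancreatic bud make NADPH, the electron donor for antioxidant enzymes and for lipid synthesis, from several pathways, and 10 genes of these pathways are described here out of 54532 genes in the deposited table. The members were chosen by gene name: G6pdx, Pgls, Pgd, Tkt and Taldo1 of the pentose phosphate pathway, the malic enzyme genes Me1, Me2 and Me3, and the isocitrate dehydrogenase genes Idh1 and Idh2. The names were put together by enzyme function with the fold changes between these TBZ and control libraries already known, so the fold changes and p-values below describe the genes and are not independent evidence. Each name matched 1 row, and all 10 genes passed the filter on low counts, as did 18226 genes in all. The name of the group holds for G6pdx, Pgd, Me1, Me3, Idh1 and Idh2, whose enzymes reduce NADP+, while Pgls, Tkt and Taldo1 encode pathway enzymes that do not reduce it themselves and the deposited description calls Me2 NAD(+)-dependent.

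The study cultured mouse pancreatic bud taken at E12.5 for 2 days, with the question of what VMAT2 and monoamines do in the developing pancreas. Of the 6 libraries, 3 came from buds given 0.1 µM tetrabenazine (TBZ), an inhibitor of the vesicular monoamine transporter VMAT2, for the whole culture, and 3 came from control buds labelled DMSO. Both groups had the same M199 medium with 10% fetal bovine serum and 0.1% DMSO, and the labels give no strain, sex, genotype or pooling. The libraries held 35.8 to 41.0 megareads counted to genes in TBZ and 41.0 to 50.6 megareads in control buds. Nothing says that the samples came from separate litters or cultures, so a p-value here covers only the spread among the samples at hand, which may be technical. On the first principal component of all tested genes, control replicate 3 stood at -34.5. TBZ replicates 1 and 3 lay on the other side, at 22.3 and 23.3. TBZ replicate 2 (-2.20) lay beside control replicates 1 and 2 (-4.05 and -4.93), so neither group was uniform.

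In the pentose phosphate pathway, G6PDX and PGD each reduce NADP+ to NADPH in the oxidative branch, PGLS acts between them, and TKT and TALDO1 shuffle sugar phosphates in the non-oxidative branch. Malic enzyme 1 and isocitrate dehydrogenase 1 make NADPH in the cytosol, and malic enzyme 3 and isocitrate dehydrogenase 2 make it in mitochondria. Glutathione reductase and thioredoxin reductase spend it on antioxidant defence, and cholesterol and fatty acid synthesis spend it on reduction steps. Several of these genes, among them G6pdx, Pgd, Tkt, Taldo1 and Me1, are known targets of the transcription factor NRF2.

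In TBZ buds the malic enzyme gene Me3 was higher than in control buds, the cytosolic genes Pgd, Me1 and Idh1 lay below the controls without overlap, and the mitochondrial genes Me2 and Idh2 above them. For the other cytosolic genes, G6pdx, Pgls, Tkt and Taldo1, the groups overlapped. With the edgeR quasi-likelihood test, at an adjusted p under 0.05 over all tested genes, 1 of 10 members rose, Me3, and none fell. Over all genes tested 0.154% were called higher and 0.0329% lower, with 28 and 6 genes. DESeq2 on the same counts called Me3 higher and Pgd lower, where it called 1.09% of its tested genes higher and 0.335% lower. EdgeR with no filter on low counts called the same 2 members, beside 0.842% of all genes higher and 0.582% lower. At an unadjusted edgeR p under 0.05 there were 2 members higher (5.08% of all genes) and 3 lower (4.54%). The TBZ and control libraries did not overlap for 3 members that were higher (8.47% of all genes) and 3 that were lower (7.03%). The median log2 fold change of the 10 members was -0.024, against 0.00031 for all tested genes, with 5 members above 0 and 5 below.

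**Figure D1:**
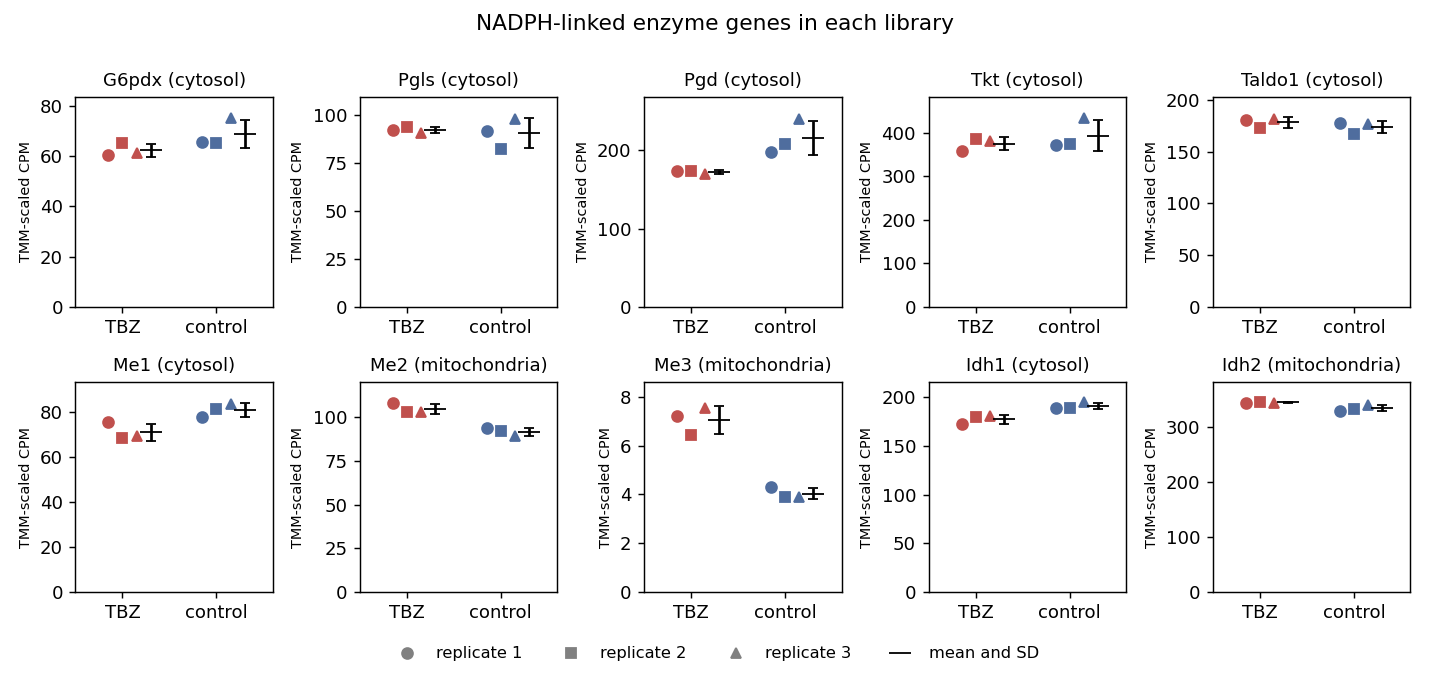
Read counts scaled to library size by TMM (CPM) of each enzyme gene in 3 TBZ and 3 control libraries, with a marker for each replicate and the mean and SD beside them; every axis starts at 0. TBZ and control libraries are apart for Pgd, Me1, Me2, Me3, Idh1 and Idh2 and overlap for G6pdx, Pgls, Tkt and Taldo1.

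In the oxidative branch of the pentose phosphate pathway, Pgd had the largest negative fold change of the members. Pgd, on chromosome 4 from position 149149991 to 149166771 (mm10, minus strand), stood at 174, 174 and 170.1 CPM in TBZ replicates 1 to 3, against 199, 209 and 240.2 CPM in control replicates 1 to 3. The lowest control was above the highest TBZ library, and the 3 TBZ values were close together while the controls were spread. The mean was 172.7 ± 2.30 CPM in TBZ and 216 ± 21.7 CPM in control buds (SD, n = 3 each). That is -0.32 ± 0.07 (SE) in log2, with a 95% interval from -0.47 to -0.17 and an adjusted p of 0.124 by edgeR. DESeq2 gave the same log2 fold change and an adjusted p of 0.00119. The authors' deposited table lists -0.32 with an adjusted p of 0.00119 for the same libraries, which is not separate evidence. Without control replicate 3, the highest library, the edgeR log2 fold change of Pgd was -0.24.

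G6pdx encodes the X-linked glucose-6-phosphate dehydrogenase that commits glucose to the pathway. It stood at 60.6, 65.4 and 61.3 CPM in TBZ replicates 1 to 3, against 65.8, 65.4 and 75.2 CPM in the controls. TBZ replicate 2 lay at the level of control replicates 1 and 2, so the groups overlapped. The log2 fold change was -0.14 ± 0.06 (SE; edgeR adjusted p = 0.534), with an interval from -0.28 to 0.0024. Without control replicate 3 it was -0.0677 (edgeR adjusted p = 0.696). The gene lies on the minus strand of chromosome X from 74409483 to 74429194 (mm10), within the span of Ikbkg on the plus strand, which stood at -0.21 ± 0.04 in log2 (SE; edgeR adjusted p = 0.123). Whether reads were counted by strand is not given in the sources used here, so reads of G6pdx and Ikbkg may not be told apart where they overlap.

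Pgls, the lactonase between the 2 dehydrogenases, stood at 92.2, 94.0 and 90.6 CPM in TBZ replicates 1 to 3 and at 92.0, 82.4 and 98.1 CPM in the controls. The TBZ libraries all lay inside the range of the controls, and the log2 fold change was 0.02 ± 0.06 (SE; edgeR adjusted p = 0.934). Its 95% interval ran from -0.12 to 0.16, which is -7.75% to 11.9%. The value turned to -0.0416 without control replicate 2 and was 0.0842 without control replicate 3. Pgls shares part of its span and its strand with Fam129c, which had only 52 to 90 reads a library.

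The non-oxidative branch was represented by Tkt and Taldo1, whose groups overlapped. Tkt, the transketolase, stood at 357, 385 and 380.2 CPM in TBZ replicates 1 to 3 and at 371, 374 and 434 CPM in control replicates 1 to 3. Control replicate 3 alone was above all TBZ libraries, and without it the log2 fold change was 0.0074 in place of -0.07 ± 0.06 (SE; edgeR adjusted p = 0.764). Taldo1, the transaldolase, stood at 181, 173 and 182 CPM in TBZ and at 178, 167 and 177 CPM in control libraries. Its log2 fold change was 0.04 ± 0.04 (SE; edgeR adjusted p = 0.834), with an interval from -0.06 to 0.14.

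**Figure D2:**
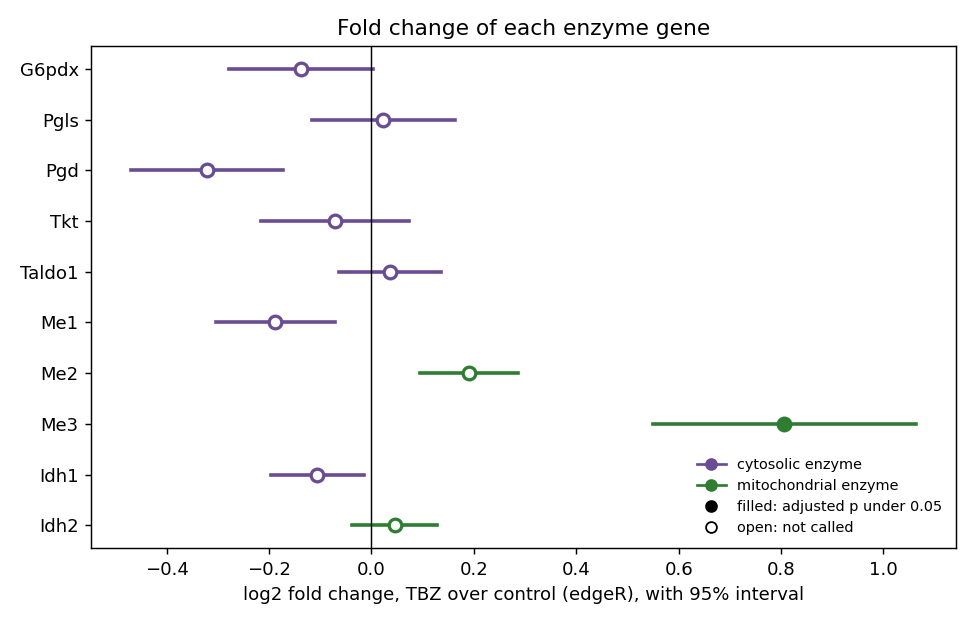
Log2 fold change of TBZ over control for each enzyme gene (edgeR), with bars for the 95% interval; purple marks cytosolic and green mitochondrial enzymes, and a filled point an adjusted p under 0.05. Me3 is the only filled point, at 0.81, and the intervals of Pgd, Me1 and Idh1 lie below 0 while those of Me2 and Me3 lie above it.

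Among the malic enzymes, Me3 was the gene with the largest rise. Me3 encodes the mitochondrial NADP+-dependent form and lies on chromosome 7 from 89632392 to 89854359 (mm10, plus strand). It had 291, 262 and 269 reads in TBZ replicates 1 to 3, against 202, 197 and 163 reads in control replicates 1 to 3, although each control library was deeper than each TBZ library. In scaled units these were 7.21, 6.43 and 7.54 CPM in TBZ buds and 4.31, 3.89 and 3.90 CPM in control buds, so that the lowest TBZ library lay well above the highest control. The mean was 7.06 ± 0.569 CPM in TBZ and 4.03 ± 0.241 CPM in control buds (SD, n = 3 each). That is a 1.75-fold rise, or 0.81 ± 0.11 (SE) in log2, with an interval from 0.55 to 1.06 and an edgeR adjusted p of 0.0340. DESeq2 gave an adjusted p of 3.5e-05, and 130 of the 18226 tested genes had a larger positive log2 fold change.

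The rise of Me3 was of like size whichever library was left out, with log2 fold changes from 0.76 to 0.87, but none of the 6 fits with a library left out passed, at edgeR adjusted p from 0.0555 to 0.234. The level was low, at the 14.8th percentile of mean FPKM among tested genes, and with limma on log2(FPKM + 0.5) the log2 fold change was 0.34, since the added constant weighs on low values. No other gene within the span of Me3 had more than 7 reads in a library.

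Me2, the other mitochondrial malic enzyme gene, was far more abundant per kilobase and lay on the same side of control by a smaller amount. It stood at 108, 103 and 103 CPM in TBZ replicates 1 to 3, against 93.8, 92.5 and 89.3 CPM in the controls. The groups did not overlap. The means were 105 ± 3.01 CPM in TBZ and 91.9 ± 2.28 CPM in control buds (SD, n = 3 each), which is 0.19 ± 0.04 in log2 (SE; edgeR adjusted p = 0.156; DESeq2 adjusted p = 0.0557). In the 14 alternatives tried its log2 fold change was between 0.16 and 0.21 and passed in none.

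Me1, the cytosolic malic enzyme that supplies NADPH for lipid synthesis, lay on the other side of 0. It stood at 75.5, 68.6 and 69.5 CPM in TBZ replicates 1 to 3, against 77.9, 81.6 and 83.8 CPM in the controls. TBZ replicate 1 came close to control replicate 1, and the groups did not overlap. The log2 fold change was -0.19 ± 0.05 (SE; edgeR adjusted p = 0.257), with an interval from -0.30 to -0.07.

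The shares of the malic enzyme transcripts follow from the same values and were not tested. Of the summed FPKM (fragments per kilobase of gene length, scaled to library size) of the 3 genes, Me1 made up 30.6, 29.6 and 29.8% in TBZ replicates 1 to 3 and 34.5, 35.9 and 37.3% in the controls. Me2 made up 69.2 ± 0.504% in TBZ and 63.7 ± 1.38% in control buds, and Me3 made up 0.783 ± 0.0607% in TBZ and 0.469 ± 0.0284% in control buds (SD, n = 3 each). The shares of the groups did not overlap for any of the 3 genes. The size of each share depends on the deposited gene lengths. These are 3.26 times the length of 1 coding transcript for Me3, 1.17 times for Me1 and 0.931 times for Me2.

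The isocitrate dehydrogenase genes lay on opposite sides of control by small amounts, and neither passed. Idh1, the cytosolic and peroxisomal form, stood at 172, 179.8 and 180.2 CPM in TBZ replicates 1 to 3, against 189, 189 and 195 CPM in the controls, without overlap. Its log2 fold change was -0.11 ± 0.04 (SE; edgeR adjusted p = 0.443). Idh2, the mitochondrial form, stood at 344, 346 and 344 CPM in TBZ, against 329.7, 332 and 340.3 CPM in control libraries, again without overlap. Its log2 fold change of 0.05 ± 0.04 (SE; edgeR adjusted p = 0.738) had an interval from -0.04 to 0.13. Idh1 made up 32.5 ± 0.559% of the summed FPKM of both genes in TBZ and 34.8 ± 0.0542% in control buds (SD, n = 3 each).

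By compartment, the 7 cytosolic genes summed to 286 ± 1.72 FPKM in TBZ and 303 ± 14.5 FPKM in control buds, and the 3 mitochondrial genes to 176 ± 1.39 FPKM in TBZ and 166 ± 1.17 FPKM in control buds (SD, n = 3 each). The cytosolic sums were 284, 287 and 287 FPKM in TBZ replicates 1 to 3 and 297, 292 and 319 FPKM in the controls. The mitochondrial sums were 177, 175 and 174 FPKM in TBZ libraries and 166, 166 and 168 FPKM in the controls. Neither sum overlapped between the groups. Idh2 makes up most of the mitochondrial sum and Taldo1, Idh1 and Tkt most of the cytosolic one, but other genes differed more between the groups. In mean FPKM, Me2 differed more (42.6 in TBZ, 37.3 in control buds) than Idh2 did (132.7 in TBZ, 128.7 in control buds). Of the cytosolic genes, Pgd had the widest gap (26.7 FPKM in TBZ, 33.4 FPKM in control buds).

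**Figure D3:**
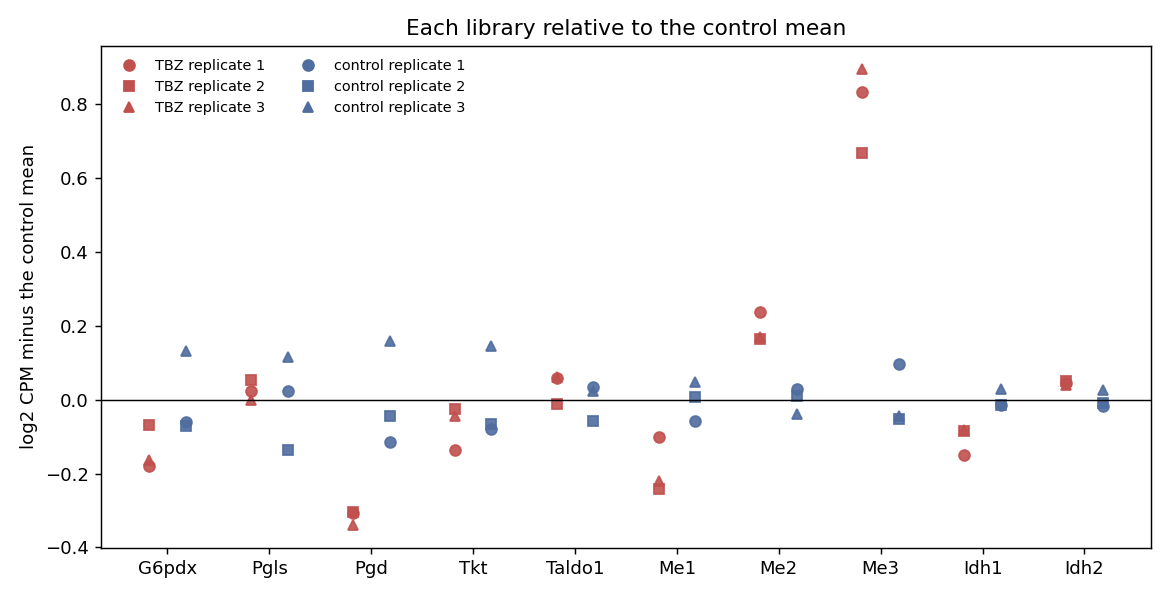
Log2 CPM of each enzyme gene in every library, relative to the mean of the 3 controls; red marks TBZ and blue control libraries, with a marker shape for each replicate. Control replicate 3 (blue triangle) stands above the other controls for G6pdx, Pgls, Pgd and Tkt, at 0.11 to 0.16, and Me3 is at 0.67 to 0.90 in the 3 TBZ libraries.

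The controls differed among themselves in the pentose phosphate genes. Control replicate 3 was the highest control for 7 of 10 members and the lowest for 1, Me2. A pentose phosphate score (the mean over G6pdx, Pgls, Pgd, Tkt and Taldo1 of log2 CPM centred on each gene's mean over all libraries) was -0.06, -0.03 and -0.05 in TBZ replicates 1 to 3 and 0.01, -0.03 and 0.16 in the controls. Only control replicate 3 stood apart, and control replicate 2 lay among the TBZ libraries.

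Among 12101 other protein-coding genes with a mean of at least 1 FPKM, the 5 whose log2 CPM followed that score most closely were Eme1, Krt15, Nrgn, Tkfc and Mpped2, with Pearson's r between 0.992 and 0.996 over the 6 libraries. Krt15, a keratin gene of stratified epithelium, stood at 3.59, 5.35 and 4.04 CPM in TBZ replicates 1 to 3 and at 5.59, 4.77 and 21.2 CPM in the controls. Each of the 5 was highest in control replicate 3, so the likeness rests mainly on 1 library.

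Marker genes show a mixed tissue in every library. All 8 pancreatic epithelial markers (Pdx1, Sox9, Nkx6-1 and others) were detected, and their sum was 554 to 620.2 CPM in TBZ and 436 to 499 CPM in control buds. The sum of 22 acinar genes was 8687 to 10501 CPM in TBZ and 5760 to 6840 CPM in control buds, and 10 of them were called higher by edgeR. That count was 3 without TBZ replicate 1, 1 without TBZ replicate 3, 5 without control replicate 2, 8 to 10 with any other library left out, and 1 under the replicate block. Markers of stomach and oesophagus, tissue beside the bud, summed to 97.9 to 187 CPM in TBZ and 144 to 279 CPM in control buds, highest in control replicate 3, with 1 of 20 genes at 0 in all libraries. In that list 9 of 20 genes had a mean under 1 CPM, and Barx1 alone had a mean of 93.1 CPM. The sum for 20 general epithelial genes was 3044 to 3360 CPM in TBZ and 2799 to 3133 CPM in control buds. For 14 mesenchymal genes it was 7978 to 9072 CPM in TBZ and 7851 to 8997 CPM in control buds, and for 7 mesothelial genes 291 to 362 CPM in TBZ and 325 to 427 CPM in control buds. Blood vessel and blood cell markers were present too, with 461 to 496 CPM in TBZ and 456 to 459.7 CPM in control buds for 8 endothelial genes, and 306 to 375 CPM in TBZ and 365 to 424 CPM in control buds for 8 erythroid genes. Macrophage markers (9 genes) summed to 417 to 538 CPM in TBZ and 437 to 545 CPM in control buds, and neural or glial markers (7 genes) to 123 to 130.3 CPM in TBZ and 114 to 149 CPM in control buds. The pancreatic epithelial, acinar and endothelial sums did not overlap between the groups, the other sums did, and outside the stomach list no marker was at 0 in all libraries. The marker with the highest mean was Nkx6-1 for pancreatic epithelium, Ctrb1 for acinar cells, Barx1 for stomach, Cdh1 for epithelium, Col3a1 for mesenchyme, Wt1 for mesothelium, Cdh5 for endothelium, Hbb-y for erythroid cells, Lyz2 for macrophages and Ret for nerve and glia. In bulk tissue a change in the number of cells of a type and a change in RNA per cell cannot be told apart, and the part of these markers in the values of Me3, Pgd and the other members was not tested.

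Around the members, the rest of the pentose phosphate pathway held no called gene. Of 13 other genes of the pathway 10 were tested, 6 above 0 and 4 below, with a median log2 fold change of 0.05. None was called by edgeR or DESeq2, and 1 was higher and 1 lower at an unadjusted edgeR p under 0.05. The smallest p-values belonged to Prps2 (log2 0.10) and Prps1 (-0.12), which make phosphoribosyl pyrophosphate from the ribose phosphate of the pathway, and Dera (0.13), with edgeR adjusted p from 0.462 to 0.526. The isozymes that could share reads with members were near 0, with at most 1 read in a library for G6pd2, at most 8 for Tktl1 and none for Tktl2. H6pd, which makes NADPH inside the endoplasmic reticulum, was at 0.04 in log2 (edgeR adjusted p = 0.873).

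Other sources of NADPH and the neighbouring reactions were likewise without a call by edgeR or DESeq2. Of 11 genes of folate metabolism, NADP+ synthesis and related steps, 9 were above 0 and 2 below, with a median log2 fold change of 0.06. The 9 include Nnt, the highest at 0.20 ± 0.35 (SE; edgeR adjusted p = 0.889), which had only 14 to 30 reads a library. In this list 1 gene was at an unadjusted edgeR p under 0.05. That gene, Aldh1l2, the mitochondrial formyltetrahydrofolate dehydrogenase, had means of 50.1 CPM in TBZ and 43.8 CPM in control buds (log2 0.19 ± 0.08 SE, edgeR adjusted p = 0.494). Its libraries stood at 50.9, 49.8 and 49.8 CPM in TBZ and at 47.3, 46.7 and 37.4 CPM in the controls, so control replicate 3 widened the gap. The next were Glud1 (0.08) and Shmt1 (0.06). The 15 genes of citrate and malate metabolism had a median log2 fold change of 0.00, with Slc25a1, the mitochondrial citrate carrier, lowest at -0.10, Pcx highest at 0.07 and 0 genes at an unadjusted edgeR p under 0.05. The genes with the smallest p among them, besides Slc25a1, were Ogdh (0.07) and Mdh1 (-0.06). Idh3a, Idh3b and Idh3g, the subunits of the NAD+-dependent isocitrate dehydrogenase, had log2 fold changes of -0.04, 0.00 and 0.04.

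Most genes of a redox list and a lipid synthesis list lay below control, where 50.1% of all tested genes lay above it. Of 17 redox enzymes, 14 were below 0 with a median log2 fold change of -0.13. Many of these enzymes use NADPH, but the list also holds Cyb5r1, Cyb5r2 and Cyb5r3, whose cytochrome reductases are known to use NADH. In that list edgeR called 1 lower, the quinone reductase gene Nqo1 (9.94 CPM in TBZ and 20.8 CPM in control buds; log2 -1.06 ± 0.12 SE, edgeR adjusted p = 0.0160), and DESeq2 called 2. The count was 1 with any library left out and 0 under the replicate block. Cbr3, a carbonyl reductase gene, was at -1.17 in log2 (edgeR adjusted p = 0.0523), and Txnrd1, the cytosolic thioredoxin reductase gene, at -0.17 (adjusted p = 0.201). Of 19 genes of sterol and fatty acid synthesis with an NADPH-using or adjoining step, 17 were below 0 with a median of -0.18. EdgeR called Msmo1 and Hsd17b7 lower (both log2 -0.31, edgeR adjusted p = 0.0395 and 0.0292), with Cyp51 next (-0.27, 0.0753), and DESeq2 called 7. With a library left out, edgeR called 2 genes of the list without control replicate 3 and 0 in each of the other fits, and the replicate block and all forms of limma called 0. Fasn and Acaca, which start fatty acid synthesis, were the 2 genes of the list above 0, with log2 fold changes of 0.02 and 0.04. The other fatty acid genes of the list, Elovl6, Scd1, Scd2, Hsd17b12 and Tecr, were at -0.14, -0.29, -0.10, -0.06 and -0.08. EdgeR called none of them.

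Other NRF2 targets lay mostly below control. Of 27 tested, 25 were below 0, with a median log2 fold change of -0.19. The list also holds Nfe2l2, the gene of NRF2 itself (-0.06), and Keap1, the gene of its inhibitor (-0.10). The 3 called by edgeR were Srxn1 (-0.77 ± 0.06 SE, adjusted p = 0.00333), Nqo1 and Gclc (-0.42 ± 0.05 SE, adjusted p = 0.0292), and DESeq2 called 6. With a library left out edgeR called 2 or 3, and under the replicate block 1. Nqo1, Cbr1, Blvrb, Hmox1, Gsr and Txnrd1 stand in both this list and the redox list. No difference between the lists was tested.

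**Figure D4:**
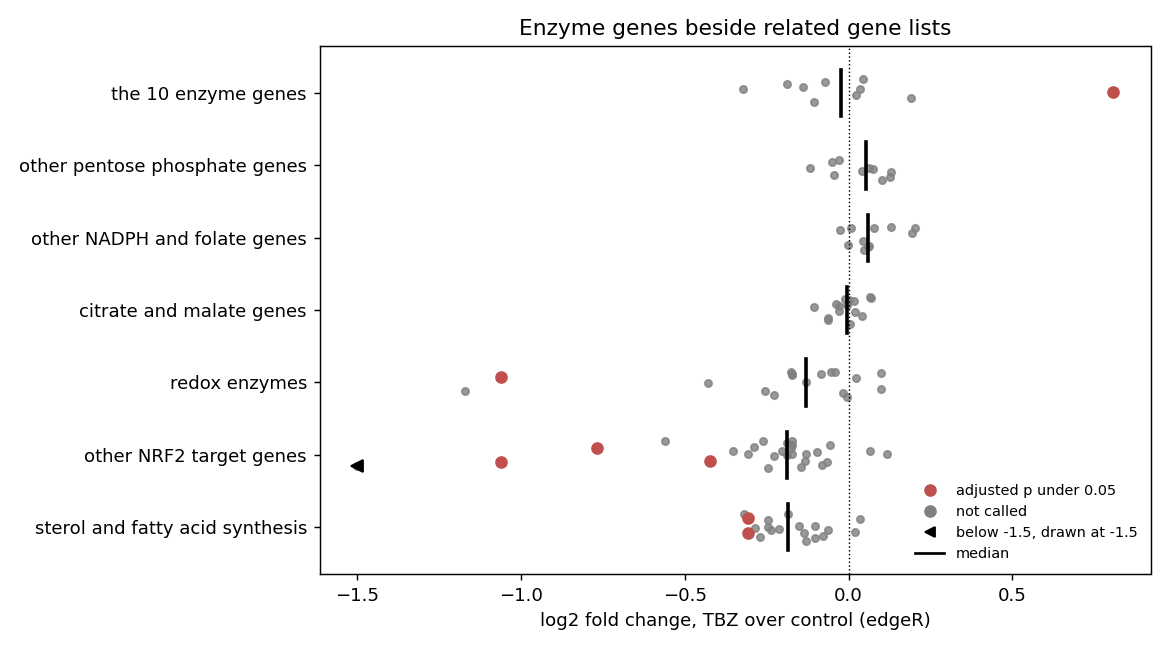
Log2 fold change of TBZ over control (edgeR) for each tested gene of the 10 enzyme genes and of 6 related lists, with a bar at the median and red for an adjusted p under 0.05; Gsta1, at -3.68, is drawn at -1.5. The medians run from -0.19 for other NRF2 targets to 0.06 for other NADPH and folate genes, with -0.02 for the enzyme genes.

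Promoter sequences of 9 of the 10 members were matched by symbol in the RefSeq table (GRCm38.p6), as 12 windows of 300 bases that run from 250 bases before to 50 bases after an annotated start, and Me2 had no entry. They were searched on both strands for TGACNNNGC, the core of the antioxidant response element that NRF2 binds with small MAF proteins. The windows of the gene that rose and of the 3 cytosolic NADPH-forming genes with the most negative fold changes are printed 5′ to 3′ on the gene's strand, in lower case with the motif in capitals.
Me3: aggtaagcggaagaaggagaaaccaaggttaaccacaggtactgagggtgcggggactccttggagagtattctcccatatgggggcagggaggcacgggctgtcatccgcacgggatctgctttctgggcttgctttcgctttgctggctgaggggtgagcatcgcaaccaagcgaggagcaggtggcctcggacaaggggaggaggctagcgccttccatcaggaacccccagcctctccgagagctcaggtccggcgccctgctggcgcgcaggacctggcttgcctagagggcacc
Pgd: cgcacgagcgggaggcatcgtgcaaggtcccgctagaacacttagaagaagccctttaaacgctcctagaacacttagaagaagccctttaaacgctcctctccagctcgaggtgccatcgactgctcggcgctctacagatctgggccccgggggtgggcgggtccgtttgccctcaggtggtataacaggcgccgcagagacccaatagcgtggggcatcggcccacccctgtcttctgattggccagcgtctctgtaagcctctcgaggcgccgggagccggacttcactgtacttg
Me1: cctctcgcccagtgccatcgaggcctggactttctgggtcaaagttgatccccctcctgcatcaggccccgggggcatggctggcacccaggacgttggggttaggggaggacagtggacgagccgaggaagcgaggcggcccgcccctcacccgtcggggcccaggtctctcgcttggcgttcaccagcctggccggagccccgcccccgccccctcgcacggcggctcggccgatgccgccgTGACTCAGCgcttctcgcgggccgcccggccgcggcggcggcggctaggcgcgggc
G6pdx: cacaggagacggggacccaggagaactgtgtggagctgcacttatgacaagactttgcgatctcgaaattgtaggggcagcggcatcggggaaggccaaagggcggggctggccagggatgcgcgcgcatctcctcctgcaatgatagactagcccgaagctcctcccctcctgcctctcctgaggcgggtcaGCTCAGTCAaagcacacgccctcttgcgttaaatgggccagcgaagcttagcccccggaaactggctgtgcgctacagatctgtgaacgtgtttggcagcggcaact

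The Me3 window is chr7:89632568-89632867 (plus strand), the Pgd window chr4:149166656-149166955, the Me1 window chr9:86695865-86696164 and the G6pdx window chrX:74428831-74429130 (all minus strand). Me1 held TGACTCAGC from 6 bases before to 2 bases after the first transcribed base, on the gene's strand. The window of a second annotated start of Me1 (chr9:86687228-86687527) held no match. G6pdx held TGACTGAGC on the opposite strand, from 57 to 49 bases before the start, which reads as its reverse complement in the printed window. Pgd held none at its outer start, and TGACATTGC lay 3 to 11 bases after a second annotated start within the gene (window chr4:149166033-149166332). The windows of Me3, Tkt, Taldo1, Pgls, Idh1 and Idh2 held no match. In all, 3 of 12 windows of the members held the motif, against 4071 of 32851 windows of all genes (12.4%) and 10 of 30 windows of the other NRF2 targets (33.3%). A match describes these letters only, and binding was not measured.

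Levels of the members spanned a wide range and depended on the length used. On the scale of deposited FPKM the order of the means over 6 libraries was Idh2 (131), Taldo1 (81.0), Idh1 (66.2), Tkt (52.0), Me2 (39.9), Pgd (30.0), Pgls (24.2), G6pdx (21.2), Me1 (19.7) and Me3 (0.378). Over the libraries, Me2 and Pgd overlapped, as did Pgls with G6pdx and G6pdx with Me1, while the other neighbours did not. Except Me3, the members stood between the 83.4th percentile of tested genes (Me1) and the 98.5th (Idh2). The deposited length equals the summed length of all annotated exons in GENCODE M21 for 9 of 10 members, Me2 being the exception, and it is 4.22 times the length of the main coding transcript for Pgls, 3.26 times for Me3, 2.91 times for Pgd and 2.28 times for Tkt.

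Per kilobase of that coding transcript, the order changed in the middle. The means were 194 CPM per kilobase for Idh2, 129 for Taldo1, 119 for Tkt, 103 for Pgls, 87.6 for Pgd, 80.0 for Idh1, 37.3 for Me2, 24.7 for G6pdx, 23.2 for Me1 and 1.24 for Me3. Pgls went above Pgd, Idh1 and Me2 on this scale, while G6pdx, Me1 and Me3 stayed the lowest 3 in either. This length was added after the data were seen, and it does not alter any fold change, since it divides each gene's libraries by 1 constant.

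**Figure D5:**
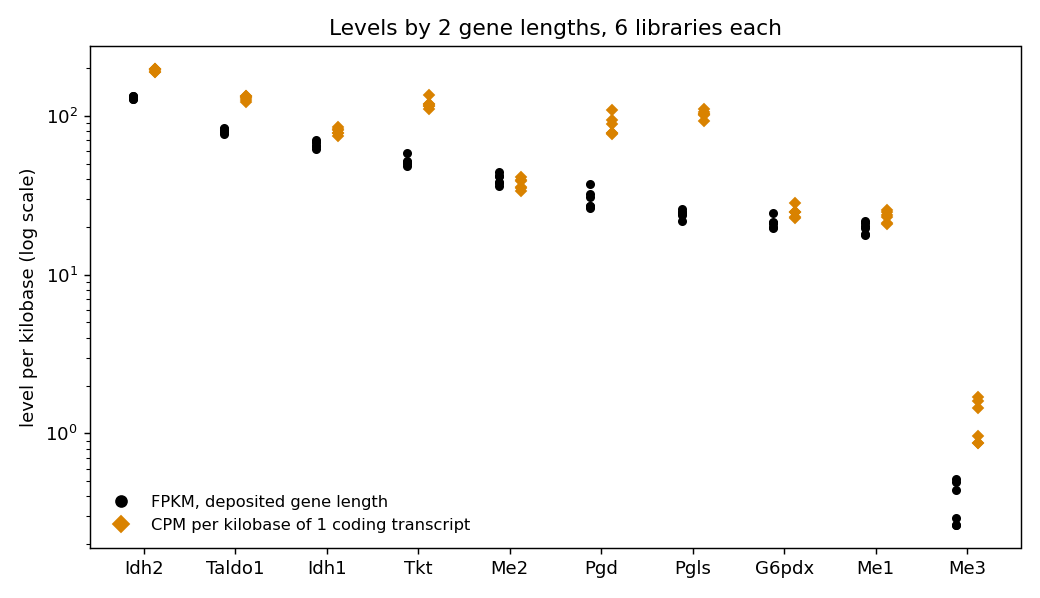
Level of each enzyme gene per kilobase in the 6 libraries on a log axis, by the deposited gene length (black, FPKM) and by the length of 1 coding transcript (orange, CPM per kilobase). Pgls, Pgd, Tkt and Me3 shift up most between the scales, and Idh2 stands highest and Me3 lowest on both.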

How the data were processed

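Poly-A RNA of cultured mouse pancreatic bud went into paired-end libraries (NEBNext Ultra RNA kit), per the labels' protocols. The submitters' processing notes name STAR, HTSeq and mm10, with no version of either tool. The deposited table holds read counts per gene and library with no normalization, per the file headers. The deposited FPKM values are the authors' and divide by the gene length in the table. The authors' signal columns, group means of scaled counts, were not used. The log2 fold changes, p-values and adjusted p-values of the authors' comparison come with no named tool. For the members they nearly equal the DESeq2 values given here.

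Counts were tested with edgeR 4.0.16 (quasi-likelihood, TMM scaling, filterByExpr, TBZ over control, two-sided, Benjamini-Hochberg over all 18226 tested genes) in R 4.3.3, with 6 libraries and no covariate. The SE divides the absolute log2 value by the root of the F statistic, and intervals are at 95%. DESeq2 1.42.0, limma 3.58.1 on FPKM, RLE scaling, no filter, other pseudocounts, a replicate block and leaving out each library were alternatives. The tests were tested on simulated data first. Members, lists and tests were chosen with earlier results of these data known. All members are named, as are the called genes and the 3 with the smallest p of each related list and the top gene of each marker list. Other genes were named after their values were seen. Of the list symbols, Bapx1 was not found in the table, and for Nnt, which has several rows, the row with the most reads was used. GENCODE M21 gave transcript lengths.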

Additional observations from a re-analysis of the deposited data

How the results depend on the processing

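Of 10 members 1 was called by edgeR and also with RLE scaling, which called 34 genes as the main test did. DESeq2 called 2 members of 222 genes and edgeR with no filter 2 of 445, Me3 and Pgd in both. The replicate block called 0 members and 5 genes, and limma on FPKM called 0 members in each form, with 13, 14, 4 and 0 genes (pseudocounts 0.5, 0.1 and 1, and 0.5 with no filter). Leaving out each library called 0 members each time and 5 to 36 genes (11 without TBZ replicate 1, 5 without TBZ replicate 3, 13 without control replicate 2). When a library was left out, the median log2 fold change of the members ran from -0.0729 (without control replicate 2) to 0.0286 (without control replicate 3), that of Pgls from -0.0416 (without control replicate 2) to 0.0842 and that of Tkt from -0.113 to 0.0074 (without control replicate 3), so these 3 values turned their sign. Under the other settings the median was between -0.027 and -0.021. The other 8 members kept their direction in all 14 alternatives. The cause of these changes was not tested. The labels state no pairing of libraries by replicate number. The deviations of same-numbered libraries correlated at 0.00, -0.15 and -0.08, which with 3 libraries a group cannot show whether they were paired. The count under the replicate block stands only as a value. With 163 to 291 reads a library, Me3 is the member whose value depth limits most.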
